A study of Mus musculus with 5 samples.

Results

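Glycolysis splits glucose into pyruvate in a chain of enzymatic steps, and the pentose phosphate pathway branches off after the initial phosphorylation to make NADPH and ribose phosphate. Most steps can be run by several isoform genes whose proteins differ in tissue and in control. The retina and its pigment epithelium are known for heavy use of glucose, and skeletal muscle has isoforms of its own for several steps. The 35 genes described here encode hexokinases, phosphofructokinases, the bifunctional Pfkfb enzymes, the enzymes from aldolase to pyruvate kinase, the pyruvate dehydrogenase subunits and kinases, the pentose phosphate enzymes and the fructose bisphosphatases. They were chosen by name, with earlier results of these data known. Of 35 genes, 34 were found under their own symbol and pyruvate kinase M (Pkm) under its older symbol Pkm2. They lie at 36 of 23141 named loci, since Pfkm is named at a locus of its own and at one that it shares with Senp1.

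The tumors (3 libraries) grew in eyes of adult mice whose Hippo kinase genes Lats1 and Lats2 were floxed and which received Cre recombinase by an adeno-associated virus (AAV5-Cre;Lats1/2 fl/fl). They were compared with uveal tissue of wild-type adults (2 libraries). The series title calls the tumors uveal melanoma. The labels give neither the promoter that drives Cre nor the cell type infected, no strain, and for the wild-type mice no virus and no floxed allele, so deletion, virus and growth of a tumor cannot be told apart. Library totals were 12687703 to 14368272 estimated fragments in tumors and 12799991 to 13911934 in wild type. Lats1 fell in the tumors (log2 fold change −1.21, SE 0.18, edgeR adjusted p = 0.012), and Lats2 did not pass (−0.62, SE 0.19, adjusted p = 0.058), values that can include exons outside the deleted part. The libraries were bulk tissue, and markers of other cell types differed greatly. The summed level of 12 pigment epithelium markers was 227 to 243 FPKM in tumors and 16318 and 16528 FPKM in wild type. Over 19 photoreceptor markers it was 13.2 to 24.7 FPKM in tumors and 1721 and 1771 FPKM in wild type. Over 10 melanocyte markers it was 10.6 to 80.1 FPKM in tumors and 6867 and 6641 FPKM in wild type. Over 16 skeletal muscle markers the sum reached 15996, 960 and 827 FPKM in tumor libraries 1, 2 and 3, and 1080 and 1038 FPKM in wild type. Tumor library 1 thus stood apart by its muscle transcripts, and results that rest on it are given with and without it. In such samples a smaller share of cells of a type and less RNA per cell cannot be told apart.

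The enzyme genes did not move as a block. Of 35 tested member loci, 3 rose in the tumors, 10 fell and 22 did not pass. The genes that rose were Pfkfb3, Pfkfb4 and Fbp1, and those that fell were Hk1, Pfkl, Pfkfb2, Aldoc, Eno1, Eno2, Pdk1, Pdk2, Tkt and Taldo1. The share changed was 37.1%, close to the 34.1% of all 15241 tested loci that passed the same threshold, an edgeR adjusted p under 0.05 (18.7% rose and 15.4% fell). A share near that background is no result about these enzymes as a group. The median log2 fold change was 0.01 at the member loci and 0.05 over all tested loci. The levels of tumors and wild type did not overlap at 25 member loci (71.4%), against 69.5% of all tested loci. Without tumor library 1, 2 or 3 there were 4, 6 and 4 rises and 11, 10 and 10 falls, and with library size alone as the scaling 5 rises and 10 falls. With wild-type library 1 or 2 left out edgeR called 0 loci of the whole table (4085 and 3996 at an unadjusted p under 0.05, and 2828 and 2793 called by DESeq2), so each edgeR call below rests on both wild-type libraries.

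**Figure D1:**
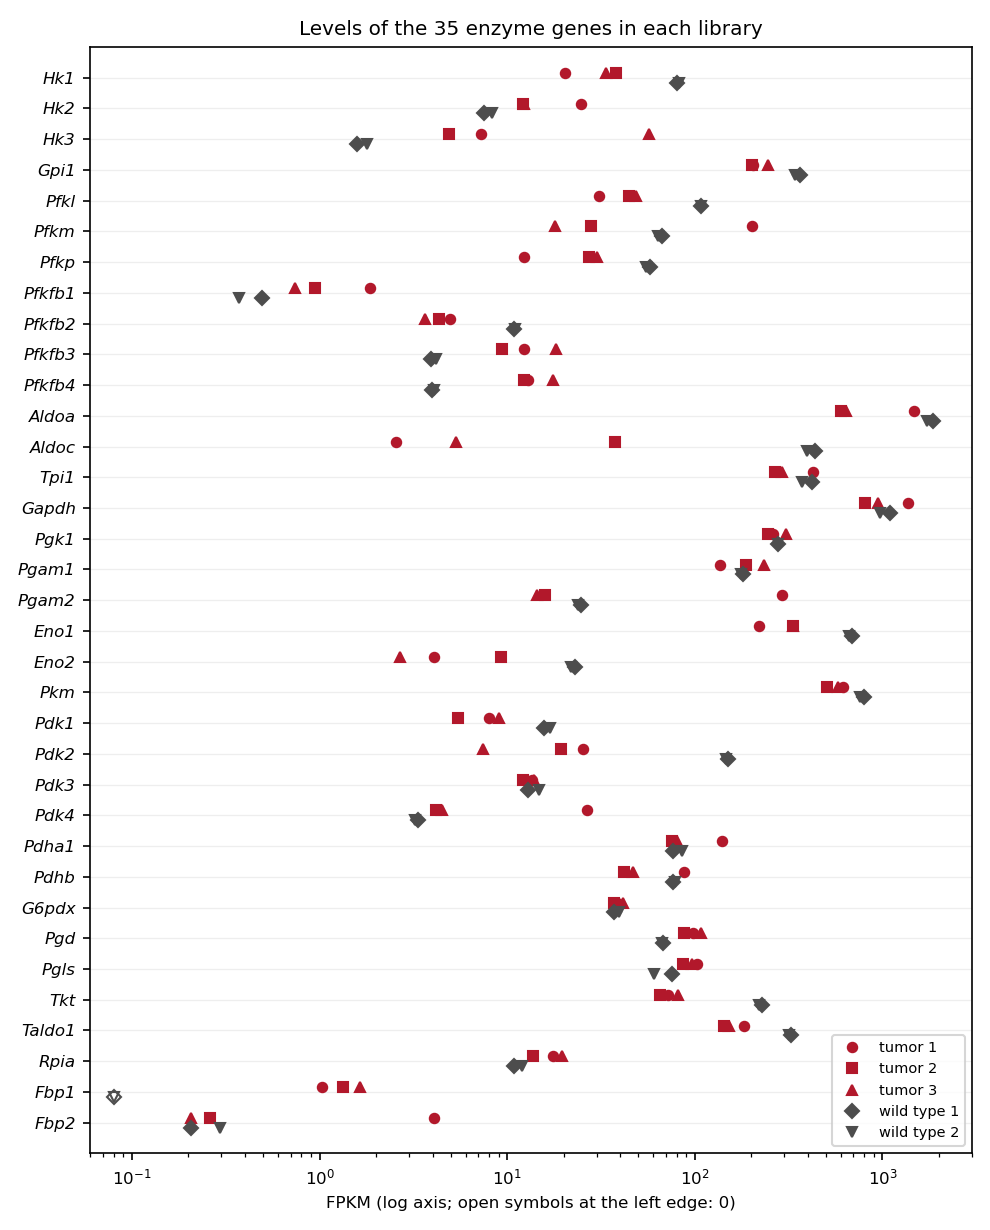
Levels of the 35 genes in FPKM on a log axis, 1 row per gene from hexokinases at the top to fructose bisphosphatases at the bottom, with tumor libraries in red above and wild-type libraries in gray below; open symbols mark 0. Wild-type symbols lie close together in most rows, while tumor library 1 (circles) stands far right of the other tumors for Pfkm, Pgam2, Pdk4 and Fbp2, and tumor library 3 (triangles) for Hk3.

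Hexokinases phosphorylate glucose and so trap it in the cell. Hk1, the form of brain and of most other tissues, fell in the tumors. It was at 20.4, 37.8 and 33.6 FPKM in the tumors (libraries 1, 2 and 3), against 80.5 and 82.7 FPKM in wild type (chromosome 10 from 62268855 to 62379920, minus strand, mm10). All tumors lay below both wild-type libraries (log2 fold change −1.37, SE 0.30, edgeR adjusted p = 0.027). Hk2, the form that insulin controls in muscle and fat and that many tumors express, was at 24.7, 12.2 and 12.2 FPKM in tumors and at 7.49 and 8.29 FPKM in wild type. Its groups did not overlap, but it missed the threshold (log2 fold change 1.11, SE 0.39, adjusted p = 0.083). With tumor library 1, the highest, left out it was 0.68 and passed (adjusted p = 0.031, range 0.031 to 0.36 over 14 alternatives).

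Hk3, a hexokinase of myeloid cells, showed the widest spread of the hexokinases. Its level was 7.25, 4.90 and 56.7 FPKM in tumor libraries 1, 2 and 3, against 1.58 and 1.79 FPKM in wild type. Every tumor was above both wild-type libraries, and tumor library 3 was 9.33-fold above the mean of the other tumors. Over all libraries Hk3 missed the threshold (log2 fold change 3.83, SE 1.36, adjusted p = 0.085). It passed without tumor library 3, at 1.91 (adjusted p = 0.019), and without tumor library 2, at 4.26 (adjusted p = 0.046, range 0.002 to 0.32 over 14 alternatives). Macrophage markers moved in the same order of libraries: summed over 15 loci they were at 8099, 5104 and 16324 FPKM in tumors and at 1043 and 1021 FPKM in wild type. Of these loci 12 rose and 0 fell, and none was at 0 in any library. Lyz2, a lysozyme gene of macrophages and neutrophils, was at 2392, 1095 and 6474 FPKM in tumors and at 338 and 367 FPKM in wild type. Neutrophil markers had another order, with sums of 50.1, 161 and 63.6 FPKM in tumors and of 19.9 and 18.5 FPKM in wild type. Of 6 tested neutrophil loci 2 rose and 1 fell, where 34.1% of all tested loci passed. The part of leukocytes in the Hk3 level was not tested.

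Because FPKM is scaled for transcript length, the isoform genes of a step can be set side by side as shares of their summed level. Hk1 held 38.9%, 68.9% and 32.8% of the hexokinase sum in tumors, against 89.9% and 89.1% in wild type. Hk2 held 47.2%, 22.2% and 11.9% in tumors, against 8.36% and 8.93% in wild type. Hk3 held 13.9%, 8.92% and 55.3% in tumors, against 1.76% and 1.93% in wild type. The share of Hk1 was thus lower in each tumor, and the gene that held most of the remainder differed: Hk2 in tumor libraries 1 and 2, Hk3 in tumor library 3. The summed level was 52.3, 54.9 and 102 FPKM in tumors and 89.6 and 92.8 FPKM in wild type. Over the 7 steps compared, 20 shares were tested, and 3 against 2 libraries allow no two-sided exact permutation p below 0.2. The shares of all 3 hexokinases reached that value (0.286 adjusted over the 20 shares), so no share can pass, and the shares are descriptions.

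Phosphofructokinase commits sugar to glycolysis, through liver (Pfkl), muscle (Pfkm) and platelet (Pfkp) subunits that assemble into tetramers. Pfkl fell in the tumors, where it was at 30.9, 44.5 and 48.5 FPKM, against 107 FPKM in both wild-type libraries. The call (log2 fold change −1.33, SE 0.24, edgeR adjusted p = 0.018) held without any single tumor library. Pfkp was at 12.3, 27.4 and 30.1 FPKM in tumors and at 57.4 and 55.1 FPKM in wild type. The groups did not overlap, but Pfkp missed the threshold (log2 fold change −1.23, SE 0.40, adjusted p = 0.072). Leaving out tumor library 1, the lowest, it passed at −0.92 (adjusted p = 0.025, range 0.019 to 0.24 over 14 alternatives).

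Pfkm, the muscle subunit gene, was at 203, 27.9 and 18.1 FPKM in the tumors (libraries 1, 2 and 3), against 66.9 and 63.6 FPKM in wild type. Tumor library 1 lay above and the other tumors below both wild-type libraries. Over all libraries it did not pass (log2 fold change 0.40, SE 1.12, adjusted p = 0.80). In tumor libraries 2 and 3 against wild type it was −1.45 and passed as a fall (adjusted p = 0.032, range 0.032 to 0.91 over 14 alternatives). Pfkm held 82.5% of the phosphofructokinase sum in tumor library 1 and 27.9% and 18.7% in tumor libraries 2 and 3, against 28.9% and 28.1% in wild type. The locus that Pfkm shares with Senp1, a SUMO protease gene, was at 5.90 to 7.23 FPKM in tumors and at 7.64 and 8.45 FPKM in wild type. By estimated counts (282 to 347 fragments in tumors, 246 and 250.01 in wild type) its log2 fold change had the opposite sign, 0.33 (SE 0.18). It did not pass (adjusted p = 0.21) and was left out of the shares, since its fragments cannot be assigned to either gene.

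The Pfkfb genes encode bifunctional enzymes that make and remove fructose 2,6-bisphosphate, the strongest activator of phosphofructokinase. In the tumors Pfkfb2 fell, while Pfkfb3 and Pfkfb4 rose. Pfkfb2, known as the heart form, fell: it was at 4.96, 4.34 and 3.63 FPKM in tumors, against 10.9 and 11.1 FPKM in wild type (log2 fold change −1.19, SE 0.18, edgeR adjusted p = 0.013). Pfkfb3, whose kinase activity far exceeds its phosphatase activity, rose. Its level was 12.3, 9.40 and 18.2 FPKM in tumors, against 3.92 and 4.20 FPKM in wild type (log2 fold change 1.76, SE 0.32, adjusted p = 0.018). It lies on chromosome 2 from 11471430 to 11554071 (minus strand, mm10). Pfkfb4, first described in testis, rose as well. It was at 12.9, 12.2 and 17.5 FPKM in tumors, against 3.99 and 4.05 FPKM in wild type (log2 fold change 1.65, SE 0.22, adjusted p = 0.010; chromosome 9 from 108988272 to 109032236, plus strand). For all 3 genes the groups did not overlap, and each call held with any single tumor library left out. Pfkfb1, the liver form, had 15 to 40 fragments in tumors and 7 and 10 in wild type and did not pass (log2 fold change 1.49, SE 0.60, adjusted p = 0.12).

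As shares of the Pfkfb sum, Pfkfb2 held 15.5%, 16.1% and 9.08% in tumors, against 56.4% and 56.2% in wild type. Pfkfb3 held 38.5%, 34.9% and 45.4% in tumors, against 20.3% and 21.3% in wild type, and Pfkfb4 held 40.3%, 45.5% and 43.6% in tumors, against 20.7% and 20.6% in wild type. The order of the genes was the same in tumor libraries 1 and 2, with Pfkfb4 highest, while Pfkfb3 was highest in tumor library 3. The summed level was 32.1, 26.9 and 40.0 FPKM in tumors and 19.3 and 19.7 FPKM in wild type. The part of other cell types in these levels was not tested.

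**Figure D2:**
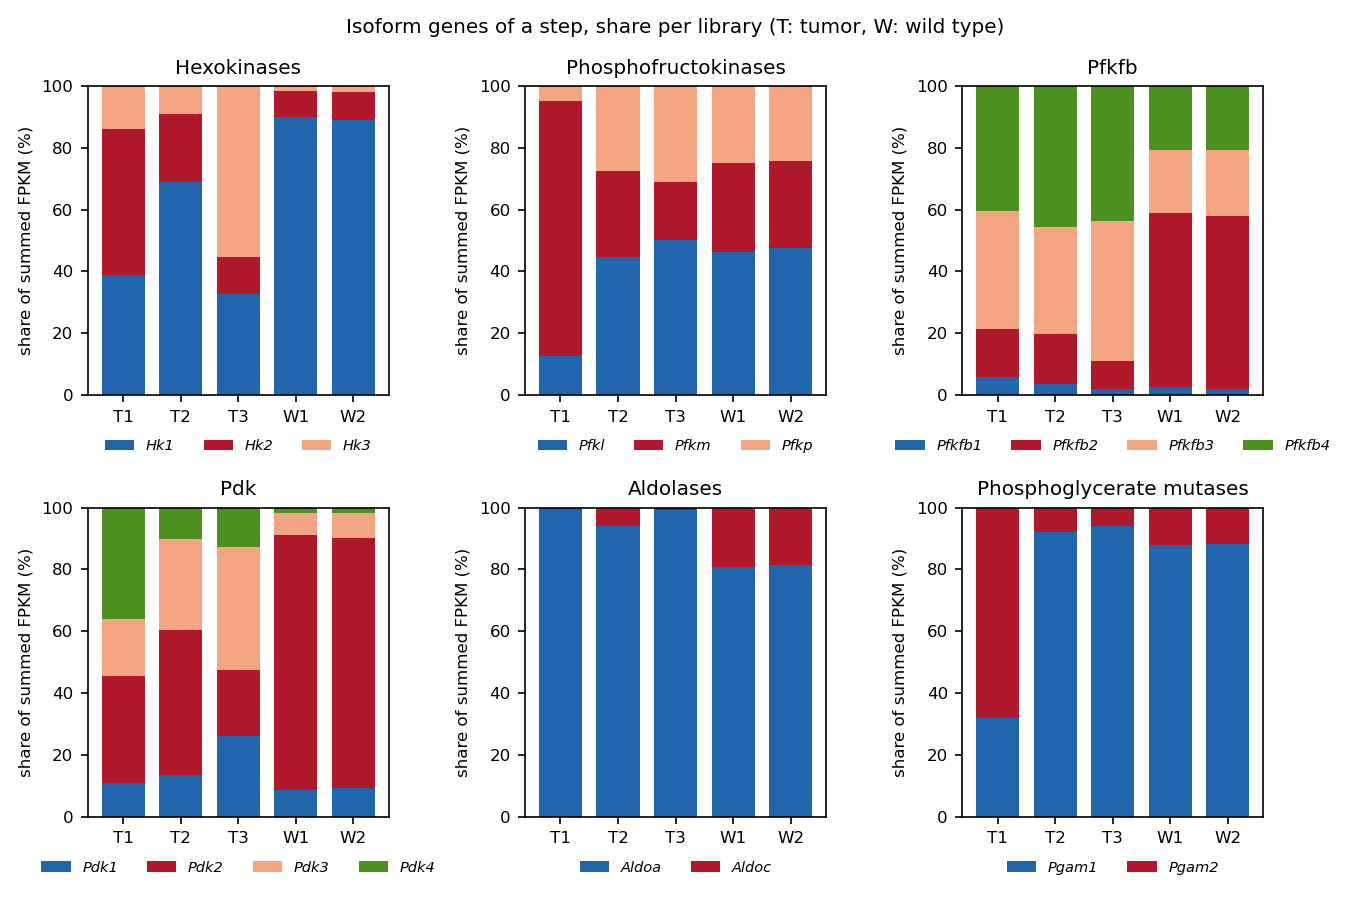
Share of each isoform gene in the summed FPKM of its step (%), as stacked bars for tumor libraries T1 to T3 on the left and wild-type libraries W1 and W2 on the right, in 6 steps. The Pfkfb panel shows Pfkfb2 at 9.08% to 16.1% in tumors and at 56.2% and 56.4% in wild type, while the phosphofructokinase and phosphoglycerate mutase panels show tumor library 1 alone apart, with 82.5% Pfkm and 68.1% Pgam2.

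The promoters of Pfkfb3, Pfkfb4, Hk2 and Pdk1 are shown as examples. These genes are among the classical targets of hypoxia-inducible factors and are not the only such targets in the set. They moved in different directions here: the first pair rose, Hk2 did not pass and Pdk1 fell. The core of the element those factors bind reads ACGTG or GCGTG, and only ACGTG was searched for. Each line gives the 250 bases before a start site (RefSeq, GRCm38.p6), 5′ to 3′ on the gene's strand, with ACGTG on either strand in capitals. Pfkfb3 has a distal and a proximal start. The distal Pfkfb3 start did not match a transcript, while the other starts shown did.
Pfkfb3 distal, chr2:11553930-11554179, minus strand: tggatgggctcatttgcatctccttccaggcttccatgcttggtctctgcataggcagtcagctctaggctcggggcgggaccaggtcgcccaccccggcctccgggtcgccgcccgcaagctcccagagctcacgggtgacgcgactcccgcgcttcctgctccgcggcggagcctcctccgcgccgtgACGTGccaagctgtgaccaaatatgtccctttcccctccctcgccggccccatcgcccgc
Pfkfb3 proximal, chr2:11502091-11502340, minus strand: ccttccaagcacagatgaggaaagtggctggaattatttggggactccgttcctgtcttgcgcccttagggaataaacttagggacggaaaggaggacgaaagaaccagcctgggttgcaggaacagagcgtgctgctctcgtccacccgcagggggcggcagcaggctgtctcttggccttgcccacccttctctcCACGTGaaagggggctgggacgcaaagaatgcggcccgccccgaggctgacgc
Pfkfb4, chr9:108991652-108991901, plus strand: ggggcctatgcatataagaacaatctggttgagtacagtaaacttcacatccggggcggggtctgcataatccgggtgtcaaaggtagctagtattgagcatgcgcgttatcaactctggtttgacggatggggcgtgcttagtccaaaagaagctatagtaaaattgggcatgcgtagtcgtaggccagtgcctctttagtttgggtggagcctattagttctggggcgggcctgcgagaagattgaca
Hk2, chr6:82774455-82774704, minus strand: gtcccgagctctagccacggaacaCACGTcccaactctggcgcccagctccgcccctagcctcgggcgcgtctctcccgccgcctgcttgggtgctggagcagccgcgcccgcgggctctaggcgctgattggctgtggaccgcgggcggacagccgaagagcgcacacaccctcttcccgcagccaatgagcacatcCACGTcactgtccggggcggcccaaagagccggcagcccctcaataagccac
Pdk1, chr2:71872974-71873223, plus strand: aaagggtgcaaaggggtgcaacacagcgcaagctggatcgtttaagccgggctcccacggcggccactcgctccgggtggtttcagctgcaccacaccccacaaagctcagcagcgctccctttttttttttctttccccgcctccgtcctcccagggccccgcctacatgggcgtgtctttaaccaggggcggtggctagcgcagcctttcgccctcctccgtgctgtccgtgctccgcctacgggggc

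The letters ACGTG occurred in both Pfkfb3 windows and at 2 places in that of Hk2, and in neither the Pfkfb4 window nor the Pdk1 window shown. In the proximal Pfkfb3 window they form part of the palindrome CACGTG, which reads as ACGTG on both strands. The Pfkfb4 window and the Pdk1 window shown both hold GCGTG, the other form of the core, so neither lacks a core match. All 35 genes matched a RefSeq promoter, with 54 start sites in all, not all of which matched a transcript. Of these windows 17 (31.5%) held ACGTG on either strand, and windows of the same gene can overlap and share a site. Over all genes 16.6% of 32851 windows of the same length held ACGTG. Whether that background counted either strand is not given, so the percentages cannot be compared. A match is only a match of letters and does not show that a factor binds there.

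Beside these, a list of 16 other genes known to respond to hypoxia moved both ways, with 3 rises, 5 falls and 8 that did not pass (median log2 fold change −0.02, against 0.05 over all tested loci). P4ha1, a collagen prolyl hydroxylase gene, rose by 1.69 on the log2 scale (SE 0.16, edgeR adjusted p = 0.0055), Ankrd37 by 2.06 (SE 0.34, adjusted p = 0.015) and the mitophagy gene Bnip3 by 0.98 (SE 0.26, adjusted p = 0.043). Vegfa, the vascular growth factor gene, fell (log2 fold change −1.85, SE 0.25, adjusted p = 0.0097). It was at 22.5, 32.8 and 20.7 FPKM in tumors and at 90.8 and 95.5 FPKM in wild type. Epas1, which encodes HIF-2 alpha, fell by 2.66 (SE 0.39, adjusted p = 0.012) and the stress gene Ddit4 by 1.12 (SE 0.29, adjusted p = 0.040).

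Aldolase splits fructose bisphosphate into triose phosphates. Aldoa, the aldolase of muscle and most tissues, was at 1468, 600 and 640 FPKM in tumors, against 1849 and 1728 FPKM in wild type. All tumors lay below both wild-type libraries, yet Aldoa missed the threshold (log2 fold change −0.94, SE 0.47, adjusted p = 0.18). Leaving out tumor library 1 gave −1.48, which passed (adjusted p = 0.026, range 0.026 to 0.44 over 14 alternatives). Aldoc, the aldolase of brain and retina, fell further. It was at 2.54, 37.6 and 5.30 FPKM in the tumors (libraries 1, 2 and 3), against 437 and 394 FPKM in wild type (log2 fold change −4.69, SE 1.23, edgeR adjusted p = 0.042). Leaving out tumor library 1 ended the call at −4.18 (adjusted p = 0.059), as did leaving out tumor library 3 at −4.30 (adjusted p = 0.079). Without tumor library 2 it was −6.63 (adjusted p = 0.0047), and the range was 6.5e-05 to 0.17 over 14 alternatives. Aldoc held 0.173% to 5.90% of the aldolase sum in tumors and 19.1% and 18.6% in wild type. Tumor library 2, the highest of the tumors for Aldoc, was also the highest for the summed inner retina and Müller glia markers. They were at 134, 310 and 114 FPKM in tumors and 3440 and 3506 FPKM in wild type. Of these 18 loci 5 fell, 1 rose and 12 did not pass, beside 34.1% of all tested loci that passed. The part of retinal tissue in the Aldoc level was not tested.

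Eno1, the general enolase, fell to 220, 332 and 333 FPKM in tumors, against 684 and 662 FPKM in wild type (log2 fold change −1.13, SE 0.26, edgeR adjusted p = 0.029). The groups did not overlap, and the call held without any single tumor library. Eno2, the enolase of neurons, was at 4.06, 9.27 and 2.69 FPKM in tumors, against 22.9 and 21.8 FPKM in wild type, and fell (log2 fold change −1.99, SE 0.53, adjusted p = 0.043). This call ended without tumor library 1, at −1.82 (adjusted p = 0.11), and with library size alone as the scaling, at −1.92 (adjusted p = 0.063; range 0.0028 to 0.19 over 14 alternatives). Eno1 held 97.3% to 99.2% of the sum of both genes in tumors and 96.8% in wild type. With the muscle enolase Eno3 counted in, Eno3 held 72.0%, 10.4% and 7.27% in tumors, against 5.90% and 6.21% in wild type.

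Between aldolase and enolase no gene passed. Tpi1, the triose phosphate isomerase gene, was at 425, 266 and 292 FPKM in tumors and at 419 and 371 FPKM in wild type. Gapdh, the dehydrogenase often used as a loading control, was at 1375, 806 and 948 FPKM in tumors and at 1098 and 972 FPKM in wild type (log2 fold change 0.06, SE 0.30, adjusted p = 0.89). Its groups overlapped. Pgk1, which makes the first ATP of the pathway, was at 244 to 308 FPKM in tumors and at 277 and 279 FPKM in wild type (log2 fold change 0.01, SE 0.19, adjusted p = 0.97). The sign of both folds turned under other settings. The phosphoglycerate mutase gene Pgam1 was at 136, 187 and 233 FPKM in tumors and at 180 and 177 FPKM in wild type (log2 fold change 0.11, SE 0.27, adjusted p = 0.78). Several of these abundant genes have processed copies in the mouse genome, and how reads that match several places were counted is not given in the sources used here.

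At the ends of the pathway, Gpi1, which turns glucose 6-phosphate into fructose 6-phosphate, was at 204, 202 and 244 FPKM in tumors and at 363 and 340 FPKM in wild type. The groups did not overlap, but Gpi1 missed the threshold (log2 fold change −0.65, SE 0.20, adjusted p = 0.058). It passed in 6 of 14 alternatives (adjusted p 0.00039 to 0.26), among them without tumor library 3 (−0.75, adjusted p = 0.036). Pkm, which makes pyruvate and exists as the splice forms PKM1 and PKM2 that gene levels do not separate, was at 615, 507 and 577 FPKM in tumors and at 801 and 759 FPKM in wild type. It was lower in each tumor and missed the threshold (log2 fold change −0.41, SE 0.21, adjusted p = 0.19).

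**Figure D3:**
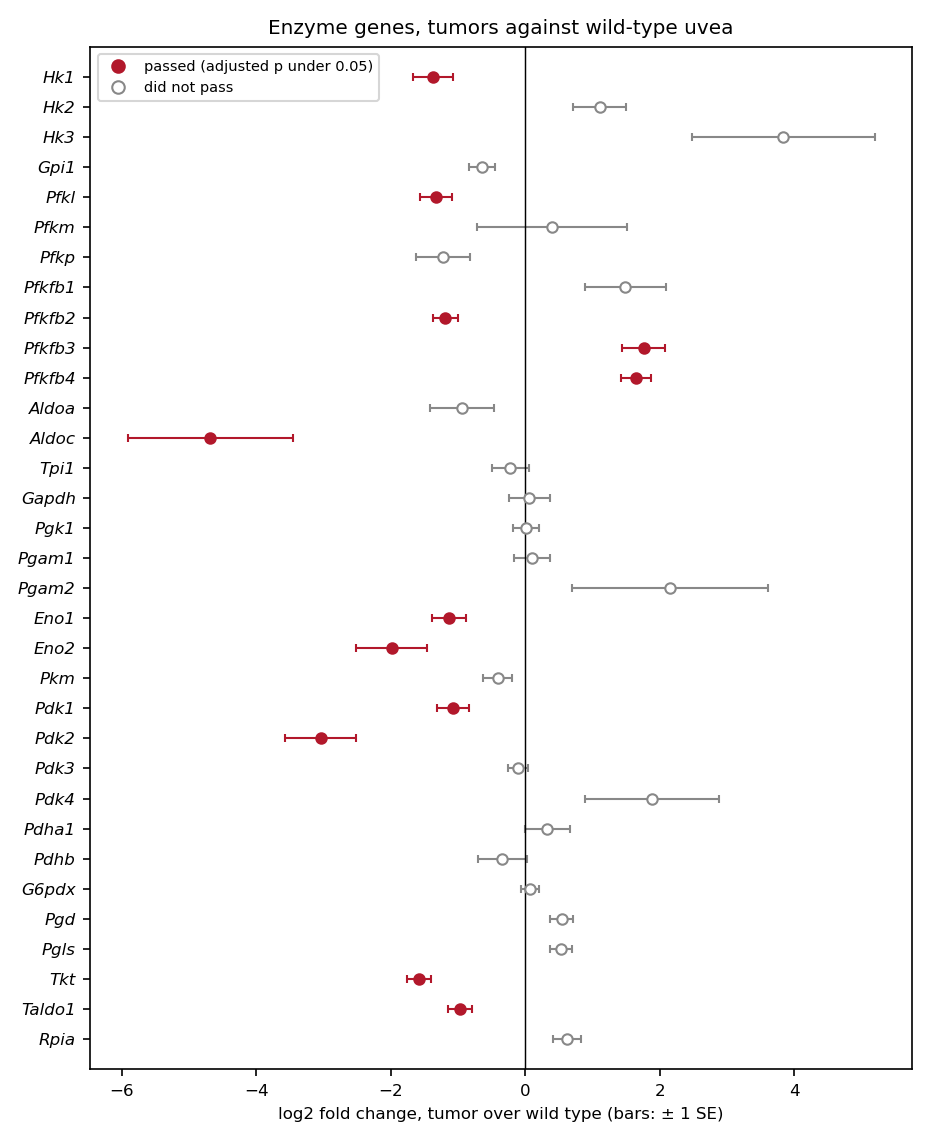
Log2 fold change of tumor over wild type (edgeR, bars of ± 1 SE) for 33 genes in pathway order, with filled red circles for genes that passed at an adjusted p under 0.05; Fbp1, at 0 in wild type, and Fbp2, not tested, are left out. Pfkfb3 (1.76) and Pfkfb4 (1.65) lie to the right, Aldoc (−4.69) and Pdk2 (−3.04) farthest to the left, and the genes from Tpi1 to Pgam1 sit near 0.

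Pyruvate dehydrogenase carries pyruvate into the mitochondrial citric acid cycle, and its kinases (Pdk1 to Pdk4) switch it off by phosphorylation. The kinase sum was far lower in the tumors, at 73.6, 41.1 and 34.8 FPKM, against 183 and 182 FPKM in wild type. Pdk2, a widely expressed form, fell to 25.5, 19.3 and 7.46 FPKM in tumors, against 151 and 147 FPKM in wild type (log2 fold change −3.04, SE 0.53, edgeR adjusted p = 0.017; chromosome 11 from 95026258 to 95041371, minus strand, mm10). The groups did not overlap and the call held without any single tumor library. Pdk2 held 34.6%, 47.0% and 21.4% of the kinase sum in tumors, against 82.5% and 80.8% in wild type. Pdk1, the form known as a hypoxia target, was at 7.98, 5.48 and 9.05 FPKM in tumors, against 15.7 and 16.9 FPKM in wild type, and fell (log2 fold change −1.07, SE 0.24, adjusted p = 0.029). The Pdk1 call ended without tumor library 1, where the log2 fold change was −1.11 (adjusted p = 0.058, range 0.0016 to 0.17 over 14 alternatives).

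Pdk3 was at 13.6, 12.2 and 13.8 FPKM in tumors and at 12.9 and 14.8 FPKM in wild type (log2 fold change −0.10, SE 0.15, adjusted p = 0.62), and its groups overlapped. As the sum shrank, its share was 18.5%, 29.6% and 39.7% in tumors, against 7.08% and 8.14% in wild type. Pdk4, the form that fasting induces in muscle and heart, was higher in each tumor than in both wild-type libraries. It was at 26.5, 4.16 and 4.47 FPKM in the tumors (libraries 1, 2 and 3), against 3.37 and 3.21 FPKM in wild type. It did not pass with tumor library 1 (log2 fold change 1.89, SE 0.99, adjusted p = 0.19) or without it (0.45, adjusted p = 0.15; range 0.096 to 0.48 over 14 alternatives). The subunit gene Pdha1 was at 140, 75.8 and 80.0 FPKM in tumors and at 76.7 and 85.8 FPKM in wild type, and did not pass (adjusted p = 0.47). Pdhb, the other subunit of the first enzyme of the complex, was at 88.0, 42.1 and 46.7 FPKM in tumors and at 76.7 and 77.9 FPKM in wild type (log2 fold change −0.34, SE 0.36, adjusted p = 0.49). Leaving out tumor library 1 gave −0.75, which passed as a fall (adjusted p = 0.028, range 0.028 to 0.77 over 14 alternatives).

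Of the 6 pentose phosphate genes Tkt and Taldo1 fell and the other 4 did not pass. The oxidative arm of the pathway makes NADPH. G6pdx, the dehydrogenase that opens it, was at 38.5, 37.1 and 41.4 FPKM in tumors and at 37.2 and 39.5 FPKM in wild type (log2 fold change 0.07, SE 0.13, adjusted p = 0.70), and its groups overlapped. Pgls, the lactonase gene, was at 102, 86.6 and 96.9 FPKM in tumors and at 75.6 and 60.5 FPKM in wild type (log2 fold change 0.53, SE 0.17, adjusted p = 0.065). Pgd, the gene of the second dehydrogenase, was at 97.4, 88.0 and 108 FPKM in tumors and at 67.8 and 66.5 FPKM in wild type (log2 fold change 0.54, SE 0.17, adjusted p = 0.065). For Pgls and Pgd every tumor lay above both wild-type libraries. Pgd passed in 6 of 14 alternatives (adjusted p 0.019 to 0.38), among them without tumor library 2 (0.58, adjusted p = 0.047).

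In the non-oxidative arm, which exchanges sugars with glycolysis, transketolase and transaldolase fell. Tkt, at a locus that also names Mir3076, was at 71.8, 65.2 and 81.6 FPKM in tumors, against 229 and 221 FPKM in wild type (log2 fold change −1.58, SE 0.18, edgeR adjusted p = 0.0077; chromosome 14 from 30549131 to 30574724, plus strand, mm10). Taldo1 was at 182, 144 and 152 FPKM in tumors, against 326 and 319 FPKM in wild type (log2 fold change −0.97, SE 0.18, adjusted p = 0.019). The groups of both genes did not overlap, and both calls held without any single tumor library. The tumors lay close to each other, with 1.25 and 1.27 as the ratio of the highest to the lowest tumor for Tkt and Taldo1. Rpia, which makes ribose 5-phosphate, was at 17.6, 13.7 and 19.5 FPKM in tumors and at 10.9 and 11.9 FPKM in wild type. It was higher in each tumor and missed the threshold (log2 fold change 0.62, SE 0.21, adjusted p = 0.076), except without tumor library 2 (0.72, adjusted p = 0.035) and under 1 other of 14 alternatives (range 0.035 to 0.52).

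Fructose bisphosphatases run the phosphofructokinase step backwards in gluconeogenesis. Fbp1, the liver form, had 18, 23 and 27 fragments in tumor libraries 1, 2 and 3 (1.03, 1.34 and 1.65 FPKM) and 0 in both wild-type libraries, and it rose (edgeR adjusted p = 0.013). Against a floor of 3 fragments per wild-type library its mean level was at least 7.08-fold higher in the tumors, a bound that covers counting error only. Fbp2, the muscle form, had 63, 4 and 3 fragments in tumors and 3 and 4 in wild type and was too low to be tested.

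Tumor library 1 stood apart from the other tumors at several enzyme genes. Pgam2, the muscle phosphoglycerate mutase gene, was at 290, 16.0 and 14.5 FPKM in the tumors (libraries 1, 2 and 3), against 24.9 and 23.7 FPKM in wild type. It held 68.1%, 7.86% and 5.85% of the mutase sum in tumors, against 12.2% and 11.8% in wild type. It did not pass with tumor library 1 (log2 fold change 2.15, SE 1.46, adjusted p = 0.29) or without it (−0.38, adjusted p = 0.19; range 0.16 to 0.72 over 14 alternatives). Tumor library 1 exceeded the mean of the other tumors 19.1-fold for Pgam2, 17.4-fold for Fbp2, 8.82-fold for Pfkm and 6.14-fold for Pdk4. The next ratios were 2.37 for Aldoa, 2.205 for Pfkfb1, 2.02 for Hk2, 1.98 for Pdhb, 1.90 for Pdk2 and 1.79 for Pdha1, several of which are not particular to muscle. At the low end the ratio was 0.118 for Aldoc, 0.236 for Hk3 and 0.426 for Pfkp. Summed skeletal muscle markers were 15.1-fold above the wild-type mean in tumor library 1 and at 0.907 and 0.781 of it in tumor libraries 2 and 3, and their part in these levels was not tested. Their most abundant genes there were Mb, the myoglobin gene, at 2948 FPKM, and Myl1, Mylpf and Acta1, genes of the contractile apparatus, at 1930.29, 1928 and 1925 FPKM. None of the 16 muscle markers was at 0 in any library, and 1 of them, Myh2, rose in the test over all libraries.

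**Figure D4:**
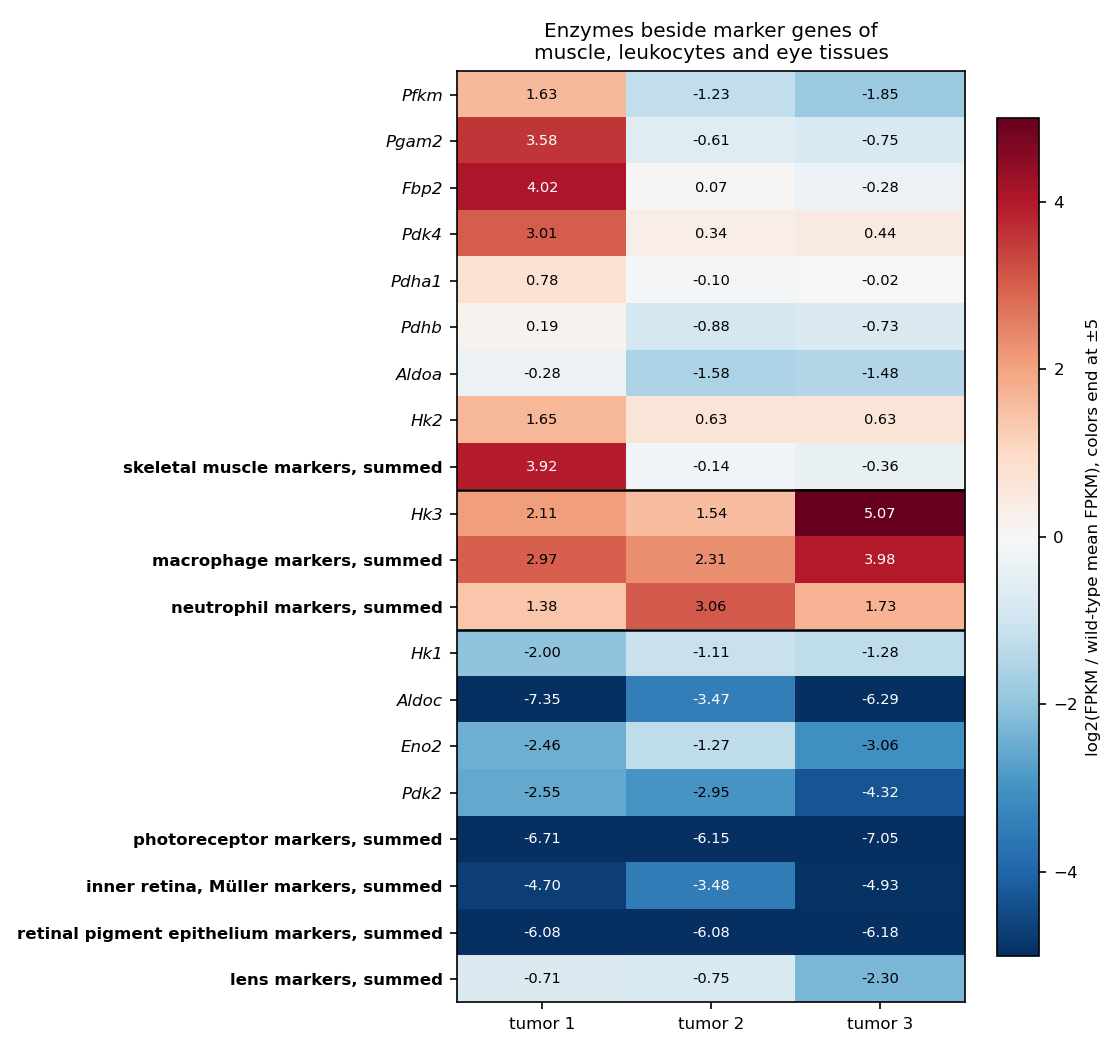
Log2 of the level in each tumor library over the wild-type mean for 13 enzyme genes (italic) and for the summed FPKM of marker lists (bold), in blocks for muscle, leukocytes and eye tissues; genes were placed after their values were seen. In the muscle block tumor library 1 is red for Pfkm, Pgam2, Fbp2 and Pdk4 as for the markers, and in the leukocyte block Hk3 is highest in tumor library 3, where macrophage markers are highest too.

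**Figure D5:**
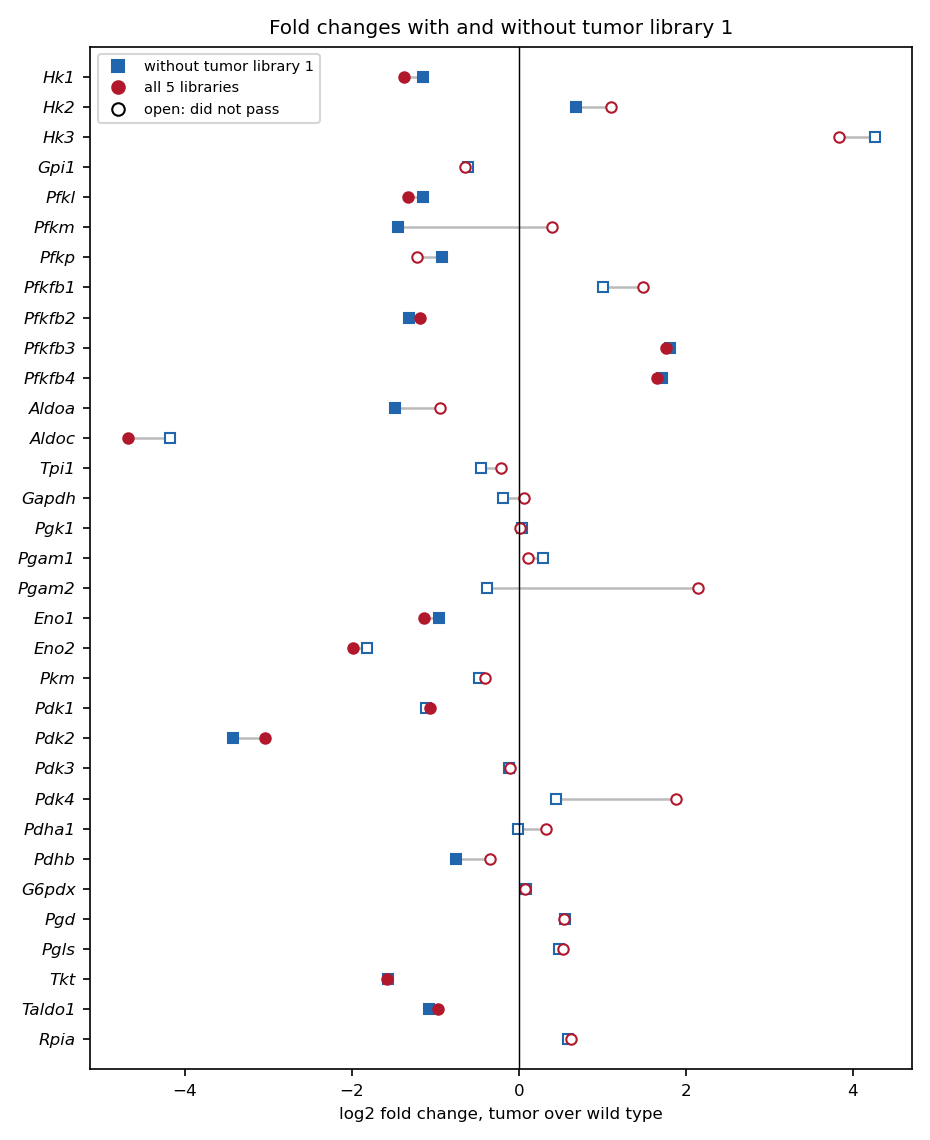
Log2 fold change of tumor over wild type over all 5 libraries (red circles) and without tumor library 1 (blue squares) for 33 genes, filled where the adjusted p was under 0.05. Pfkm moves across 0, to −1.45, and Pgam2 to −0.38, while Pfkfb3 (1.76 and 1.81) and Tkt (−1.58 and −1.57) stay nearly in place.

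The counts for further enzymes of the same pathways stand beside the 34.1% of all tested loci that passed, and with so few loci nothing is read from them. Of 16 tested loci of other glycolytic and gluconeogenic genes, 2 rose, 2 fell and 12 did not pass (median log2 fold change 0.21). Galm, whose product interconverts the forms of glucose at its entry, fell to 7.85, 6.15 and 8.30 FPKM in tumors, against 34.4 and 38.7 FPKM in wild type (log2 fold change −2.25, SE 0.18, edgeR adjusted p = 0.0046). G6pc3, a glucose 6-phosphatase gene, fell by 1.23 (SE 0.17, adjusted p = 0.011). The mitochondrial gluconeogenic gene Pck2 rose by 0.89 (SE 0.15, adjusted p = 0.016) and the ADP-dependent glucokinase gene Adpgk by 0.98 (SE 0.21, adjusted p = 0.026). Of 8 tested genes around pyruvate dehydrogenase, 1 rose and 1 fell (median −0.32), both of them phosphatases that reactivate the complex: Pdp1 rose by 1.52 on the log2 scale (SE 0.23, adjusted p = 0.012) and Pdp2 fell by 0.91 (SE 0.22, adjusted p = 0.036). Of 7 tested further pentose phosphate genes, 0 rose and 1 fell (median −0.19), namely Prps2, which makes phosphoribosyl pyrophosphate (−0.94, SE 0.19, adjusted p = 0.022).

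Of 13 tested glycogen genes, 0 rose, 2 fell and 11 did not pass (median −0.48). These were the phosphorylase genes Pygl, at 2.39, 4.68 and 8.28 FPKM in tumors and 31.7 and 32.6 FPKM in wild type (log2 fold change −2.60, SE 0.51, edgeR adjusted p = 0.021), and Pygb (−1.10, SE 0.24, adjusted p = 0.027). Targets of NRF2, a factor known to drive pentose phosphate and glutathione genes, gave 0 rises and 4 falls of 10 (median −0.90). Nqo1, the quinone reductase gene, fell to 5.11, 4.76 and 4.40 FPKM in tumors, against 72.0 and 78.2 FPKM in wild type (log2 fold change −3.95, SE 0.15, adjusted p = 0.0029), and the glutathione synthesis genes Gclc and Gclm fell by 1.32 and 1.23 (adjusted p = 0.0089 and 0.0091). Proliferation genes rose at 14 of 18 loci with 0 falls (median 2.72). Of the remaining markers, those of the retinal pigment epithelium fell at 10 of 12 loci, of photoreceptors at 18 of 19, of melanocytes at 9 of 10, of red blood cells at 4 of 4 and of lens at 2 of 9 tested, and none of these rose. The counts given here for glycogen, NRF2 and other lists stand beside the 34.1% of all tested loci that passed (18.7% rose and 15.4% fell).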

How the data were processed

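RNA-seq of 3 tumor and 2 wild-type libraries was analysed from the authors' table per replicate. The submitters' processing notes name Cuffdiff, Cufflinks 2.2.1, TopHat2 2.0.9 and the mouse build mm10. Annotation, strandedness and each tool's role were not given in the sources used here. The deposited table holds an estimated count of fragments per locus, not scaled, and an FPKM (fragments scaled to transcript length and library size). Its signal column of scaled fragments, per the file headers the authors' own, served only to read off their factor per library, which gives the FPKM of the floor of 3 fragments. The deposited group FPKM was within 1% of the replicate mean at 100% of loci above 1 FPKM.

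Estimated counts (96.8% to 97.1% whole) were rounded. Loci without a name (1627 of 24768, 1.52% to 4.37% of fragments) were left out. All libraries were kept, since pairs within a group differed beyond sampling noise (chi-square per degree of freedom 5.56 in wild type, 108 to 139 in tumors). With edgeR 4.0.16 (R 4.3.3), loci passing filterByExpr at a minimum count of 10 were scaled by TMM and tumors compared with wild type by the quasi-likelihood F-test, two-sided, with Benjamini-Hochberg adjustment over all 15241 tested loci and a threshold of 0.05; the procedure was checked on simulated counts. The SE is the log2 fold change over the square root of F. "Rose" and "fell" are used of loci that passed. Levels are FPKM per library. The design says nothing of separate animals, so p-values measure the spread between these libraries, which may be technical. Library numbers follow the table, whose numbers nothing ties to those of the labels.

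Shares of a step use FPKM and an exact permutation test over libraries (SciPy 1.17.1). Other lists (enzymes, glycogen, hypoxia, NRF2 targets, proliferation and cell type markers) were described by counts and medians, naming up to 3 risen and 3 fallen genes with the smallest p. Members and lists were chosen with earlier results of these data known. Alternatives were DESeq2 1.42.0, RLE and library-size scaling, no filter, limma 3.58.1 on log2(FPKM + 1) and log2(FPKM + 0.1), and leaving out each library; DESeq2 without a wild-type library was added after the results were seen. Adjusted ranges over 14 alternatives include all of these. Gene coordinates and promoters are from RefSeq (GRCm38.p6, the same assembly as mm10).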

Additional observations from a re-analysis of the deposited data

How the results depend on the processing

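No paired analysis was possible because the replicate numbers in the table could not be tied to those of the labels. Over the whole table, leaving out 1 library gave 0 to 3032 rises and 0 to 3112 falls with edgeR, 0 of both where a wild-type library was left out, where the lone library is assumed to vary like the tumors; DESeq2 called 1641 rises and 1187 falls without wild-type library 1 and 1605 and 1188 without wild-type library 2. The split over all loci was 2429 rises and 3067 falls with limma on log2(FPKM + 1) without a filter, against 2852 and 2349.

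Of the enzyme loci, at most 6 rose and at most 11 fell with 1 tumor library left out. DESeq2 over all libraries called 7 rises and 13 falls, where it called 6978 of 18603 loci of the whole table. Library size alone as the scaling gave 5 rises. Directions turned for values that did not pass over all libraries. Without tumor library 1 the log2 fold changes were −1.45 for Pfkm, −0.19 for Gapdh, −0.38 for Pgam2 and −0.0091 for Pdha1. On the 3 FPKM settings they were −0.46, −0.48 and −0.46 for Pfkm, −0.26, −0.30 and −0.26 for the locus of Pfkm and Senp1, −0.023 in each for Gapdh and −0.045, −0.046 and −0.045 for Pgk1. Gapdh ranged from −0.19 to 0.19 with 1 library left out, Pfkm from −1.45 to 0.86, Pgk1 from −0.099 to 0.042, Pgam1 from −0.0998 to 0.29, Pgam2 from −0.38 to 2.64, Pdha1 from −0.0091 to 0.46 and G6pdx from −0.021 to 0.084. Gapdh was at −0.066 without wild-type library 2 (−0.065 with DESeq2). Pgk1 was at −0.024 with DESeq2, −0.022 with RLE, −0.099 without tumor library 3, −0.045 and −0.033 without wild-type library 1 and 2, and −0.038 and −0.029 there with DESeq2. Pgam1 was at −0.0998 without tumor library 3, and G6pdx at −0.021 without wild-type library 1 (−0.015 with DESeq2). The cause was not tested.

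With 1 library left out, the share differences in percentage points ranged from −18.3 to 0.483 for Pfkl, −5.21 to 26.7 for Pfkm, −8.36 to 4.73 for Pfkp, −26.0 to 5.14 for Pgam1 and −5.14 to 26.0 for Pgam2; with Eno3 counted in, the Eno1 share difference was −22.0. The other 14 shares kept their direction in every setting run. In the list counts with 1 library left out, rises and falls ranged from 0 to 3 and 0 to 3 for other glycolytic genes, 0 to 1 and 0 to 3 around pyruvate dehydrogenase, 0 to 1 and 0 to 2 for further pentose phosphate genes, 0 to 0 and 0 to 5 for glycogen, 0 to 4 and 0 to 6 for hypoxia, 0 to 1 and 0 to 5 for NRF2 targets, and 0 to 17 rises for proliferation. DESeq2 over all libraries called 3 falls around pyruvate dehydrogenase, 1 rise and 2 falls for pentose phosphate, 5 rises for hypoxia and 1 rise for NRF2 targets. Depth limits Pfkfb1, Fbp1 and Fbp2, which had at most 63 fragments in a library.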
